A study of Mus musculus with 2 samples.

Results

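The genes described here encode lysosomal hydrolases, cathepsins, membrane proteins of the lysosome and the cofactors that hydrolases need. They are 40 genes of 43346 with an Ensembl identifier, taken by symbol from the gene tables of both libraries, and all 40 were found. They were read in groups of 10 cathepsins, 8 glycolipid enzymes, 6 glycosaminoglycan enzymes, 7 membrane proteins and 3 cofactors. The 4 glycosidases of glycoproteins and glycogen (Gaa, Manba, Man2b1 and Fuca1) and the pair Tpp1 and Ppt1 were set apart as groups of their own.

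The RNA was poly(A) RNA of brain from 1 male mouse of the inbred strain C57BL/6J, 10 weeks old, with no transgene or treatment named. It was sequenced in 2 libraries, named technical replicates 1 and 2 of 1 biological replicate, and replicate 2 was made later than the publication that the labels cite. There was 1 group, so the only comparison is between the libraries. It has no replicate check and says nothing about variation between mice, and p-values here compare these libraries, not conditions.

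A lysosome is the acidic compartment in which a cell breaks down proteins, glycolipids, glycosaminoglycans and glycogen delivered by endocytosis and autophagy. Its hydrolases are made in the endoplasmic reticulum, are tagged with mannose 6-phosphate and are carried to the lysosome by receptors, while heavily glycosylated membrane proteins shield its limiting membrane. Inherited loss of single hydrolases or cofactors causes storage diseases, many of which damage neurons, and loss of several of these genes causes the neuronal ceroid lipofuscinoses.

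The depth was 18302506 expected counts in replicate 1 and 17828479 in replicate 2, and a count of 0 allows a share of up to 1.64e-05% and 1.68e-05% of these totals (3 counts). Levels are in TPM, a transcript level that is divided by transcript length, is scaled to 1 fixed total and can be compared between genes. Mitochondrial genes and their nuclear copies took 63.1% of TPM in replicate 1 but 28.1% in replicate 2, which left unequal remainders for all other genes. A gene was called higher or lower in replicate 2 where an exact binomial test on rounded expected counts, with library sizes scaled by TMM (a scaling factor from edgeR) and Benjamini-Hochberg adjustment over 16320 tested genes, gave an adjusted p under 0.05 and the counts differed at least 2-fold. Counting intervals (95%, exact Clopper-Pearson) cover counting error only, not error in how reads were shared among transcripts. In replicate 1 the deposited TPM lay below the authors' deposited TPM interval for 5 of the 40 genes (Sgsh, Gaa, Manba, Cln3 and Grn) and above it for 7, and in replicate 2 below it for 1 and above it for 19.

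Transcripts of all 40 genes were detected in both libraries, but at levels that differed widely between them. The summed TPM of the 40 genes was 1161 in replicate 1 and 3438 in replicate 2 (2300 ± 1610, SD, n = 2), or 0.116% and 0.344% of all TPM. By summed TPM replicate 2 thus held more of these transcripts. Psap alone had 62.9 and 971.1 TPM and Ctsd 16.6 and 342.4, while 5 genes had lower TPM in replicate 2. Without mitochondrial genes and their copies the sums were 3145 and 4781. In replicate 1, 34 genes had at least 1 TPM and 17 at least 10 TPM, and in replicate 2 these were all 40 and 35. In tissue, fewer cells of a type and less RNA per cell cannot be told apart.

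The calls were 20 higher and 5 lower in replicate 2, with 15 of the 40 genes not called. Among all tested genes 34.5% were called higher and 23.8% lower, so the 40 genes were called higher more often (50%) and lower less often (12.5%) than the background, a description with no test. With library totals in place of TMM every log2 count fold was 0.61 higher. Then 22 of the 40 genes were called higher, with Ctsb and Gusb added, and 0 lower, against backgrounds of 43.4% and 7.83%. With the trend of the count folds on GC content removed across all genes, 6 were called higher and 1 lower, where 10.3% and 9.05% of tested genes were. The median log2 ratio of TPM + 1, replicate 2 over replicate 1, was 1.63 over the 40 genes and 0.71 over all tested genes. That log2 ratio was at least 1 for 27 of the 40 genes and at most -1 for 1 (Asah1), where 42.5% and 1.37% of tested genes were. Adding 1 to TPM understates the ratios of low genes.

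No call ran against TPM, but the sizes of the differences were not the same on the scales. TMM scales the counts alone. TPM is also divided by an effective transcript length, which differed between the libraries for some genes, such as Ctsa (829.5 and 1804 bases). TPM was higher in replicate 2 for 35 of the 40 genes and lower for 5, and these 5 (Ctsc, Ctso, Asah1, Ids and Lamp2) were the ones called lower. Of the 5, only Asah1 was more than 2-fold lower by TPM. Ctsb, Ctsl, Arsb, Gusb, Lamp1, Cd63 and Gm2a had more than 2-fold higher TPM in replicate 2 and were not called.

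The order of the genes differed as well. Spearman's rho of TPM between the libraries was 0.60 over the 40 genes, given as a description since genes are not replicates. Ids, the highest of the 40 genes in replicate 1, was at rank 249 of all 43346 genes there. Psap, the highest in replicate 2, was at rank 77 there. Of the 10 highest genes, 8 were common to both libraries, and the top 3 held 40.3% and 45.8% of the summed TPM.

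**Figure D1:**
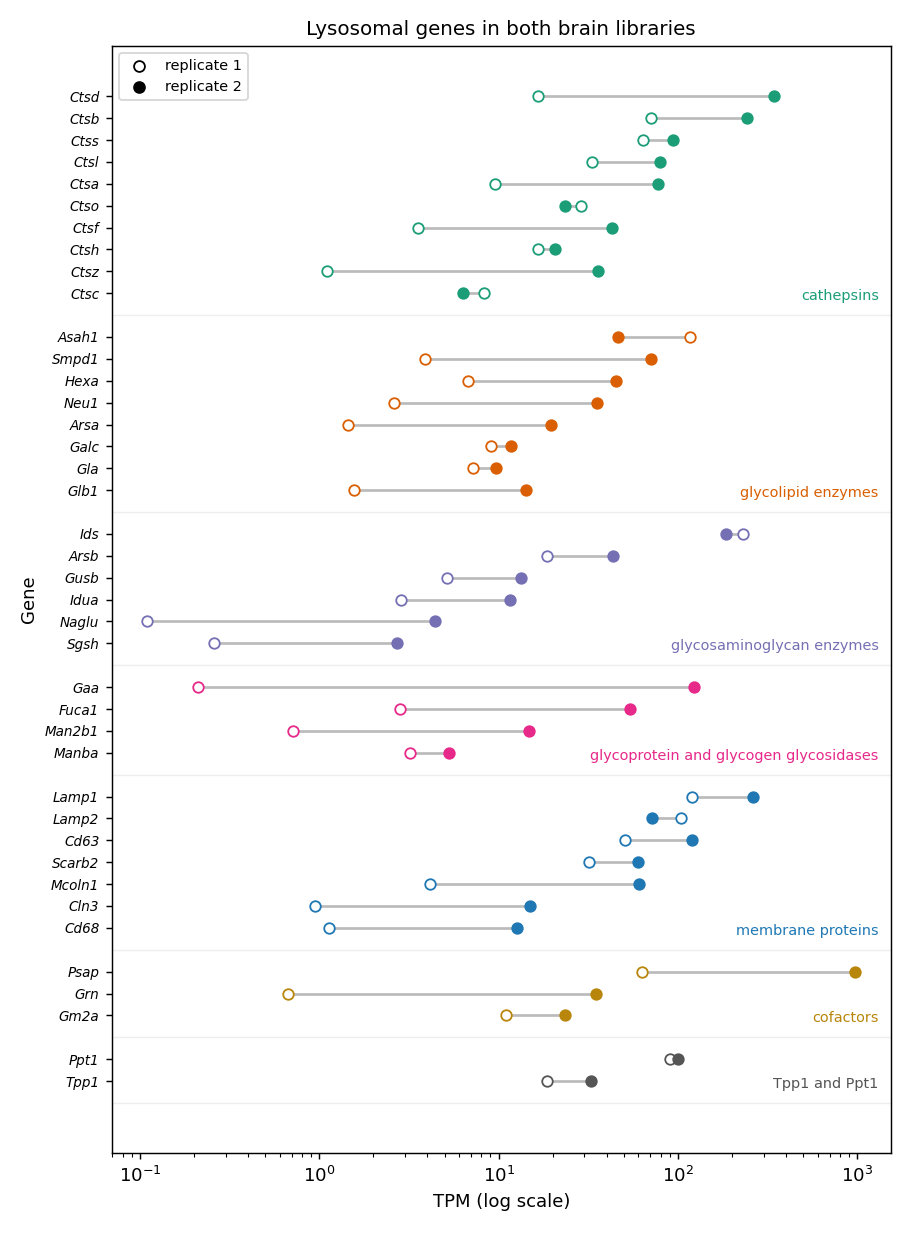
TPM (log axis) of each of the 40 genes in replicate 1 (open circles) and replicate 2 (filled circles), 1 library each, ordered within groups by mean TPM. The filled circle lies to the right for 35 genes, and the gap is widest for Gaa, at 0.21 and 123.5 TPM.

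The cathepsins are the proteases of the lysosome, and their summed TPM was 251.8 in replicate 1 and 965.7 in replicate 2. Of the 10 genes, 4 were called higher (Ctsa, Ctsd, Ctsf and Ctsz), 2 lower (Ctsc and Ctso) and 4 were not called. With library totals 5 were called higher and 0 lower, and with the GC trend removed 1 higher and 0 lower. The group's median log2 ratio of TPM + 1 was 1.51. Under TMM 40% of the cathepsins were called higher and 20% lower, near the 34.5% and 23.8% of all tested genes.

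Ctsd encodes cathepsin D, the main aspartic protease of the lysosome, whose loss causes a neuronal ceroid lipofuscinosis (ENSMUSG00000007891.11, GRCm38, chr7:142375911-142388038, minus strand). Its TPM was 16.6 in replicate 1 and 342.4 in replicate 2, from 406 and 7172 counts. It was the highest cathepsin in replicate 2 and only the sixth in rank in replicate 1. The TPM ratio was 20.7 (counting interval 18.7 to 22.9), and the log2 count fold was 3.57.

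Cathepsin B, a cysteine protease that cuts within chains and from their ends, was the most abundant cathepsin in replicate 1 (ENSMUSG00000021939.7, chr14:63122462-63145923). Ctsb stood at 70.6 and 243.4 TPM (157 ± 122, SD, n = 2), a ratio of 3.45 (3.33 to 3.57), and its log2 count fold of 0.81 was below 2-fold under TMM. Ctss, the cysteine protease of microglia and antigen-presenting cells that trims the invariant chain, was the next in replicate 1, at 63.6 and 94.0 TPM, and was not called. Ctsl, another endopeptidase, had 33.2 and 79.8 TPM and was likewise not called.

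Several cathepsins clip residues from chain ends. Ctsa encodes a carboxypeptidase that also holds β-galactosidase and neuraminidase in a protective complex, and was at 9.57 and 77.0 TPM. Ctsz, a carboxypeptidase, had 1.11 and 35.97 TPM, with a ratio of 32.4 (20.8 to 53.5) from 20 and 489 counts. Ctsh, an aminopeptidase, was at 16.6 and 20.6 TPM, and its counts did not differ at the threshold (adjusted p = 0.0502, exact binomial test). Ctsc, which activates serine proteases of granules by removing dipeptides, was at 8.27 and 6.30 TPM and was called lower, with a log2 count fold of -1.50.

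Of the other cysteine cathepsins, Ctsf was at 3.53 and 42.9 TPM and was called higher. Loss of its product also causes a ceroid lipofuscinosis. Ctso was at 28.7 and 23.3 TPM, and its log2 count fold was -1.29.

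Both Ctsd and Ctss have annotated coding transcripts that differ in a short coding stretch, and the libraries divided their reads between them differently. The sequences below show these stretches in capitals, with 21 coding bases on either side (GENCODE M21, GRCm38, 5′ to 3′ along the transcript). Those of Ctsd lie at chr7:142377333-142377350 on the minus strand, are 18 bases long and are present in Ctsd-202 and absent from Ctsd-201, which also differs at its 5′ end. Those of Ctss lie at chr3:95529434-95529436 on the plus strand, are 3 bases long and are present in Ctss-201 and absent from Ctss-202. Both Ctss transcripts are listed at 1355 bases, so they also differ outside this stretch.
Ctsd-202: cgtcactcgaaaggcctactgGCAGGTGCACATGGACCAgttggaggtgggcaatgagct
Ctss-201: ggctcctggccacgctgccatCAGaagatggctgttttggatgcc
Ctsd-202 held 0% of the gene's TPM in replicate 1 and 96.3% in replicate 2, and Ctsd-201 held 100% and 3.68%. Ctss-201 held 31.7% and 3.92%, and Ctss-202 held 68.3% and 96.1%. Ctss was picked out for its sequence after its shares were seen.

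The glycolipid enzymes take apart gangliosides, sulfatide, galactosylceramide and sphingomyelin, the last steps leading to ceramide and sphingosine. Of the 8 genes, 5 were called higher (Glb1, Smpd1, Arsa, Hexa and Neu1), 1 lower (Asah1) and 2 were not called (Gla and Galc). Under library totals these were 5 higher and 0 lower, and with the GC trend removed none was called. The median log2 count fold was 1.97 under TMM and turned to -0.11 with the GC trend removed. The summed TPM was 149.8 and 252.4, and Asah1 held most of it in replicate 1. The calls under TMM were 62.5% higher and 12.5% lower, beside 34.5% and 23.8% of all tested genes.

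Asah1 encodes acid ceramidase, which splits ceramide into sphingosine and a fatty acid (ENSMUSG00000031591.10, chr8:41340197-41374773, minus strand). It had 117.2 TPM in replicate 1 and 46.1 in replicate 2 (81.6 ± 50.3, SD, n = 2), a ratio of 0.393 (0.365 to 0.423). Smpd1, acid sphingomyelinase, went the other way, from 3.90 to 70.4 TPM, a ratio of 18.05 (15.0 to 21.8). Asah1 was thus the highest of the 8 genes in replicate 1 and Smpd1 the highest in replicate 2.

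The enzymes that act on gangliosides all had higher TPM in replicate 2. Glb1, β-galactosidase, was at 1.57 and 14.2 TPM. Hexa, the alpha subunit of β-hexosaminidase whose loss causes Tay-Sachs disease, was at 6.78 and 45.3 TPM, 6.68 times higher in replicate 2 (5.64 to 7.95). Neu1, the lysosomal sialidase, was at 2.61 and 35.4 TPM.

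The enzymes of myelin lipids differed from each other. Arsa, arylsulfatase A, which removes sulfate from sulfatide, was at 1.44 and 19.6 TPM, with 52 and 547 counts. The retained-intron transcript Arsa-201 led in both libraries, with 100% and 61.55% of the gene's TPM. Protein-coding transcripts of Arsa held 0% and 38.45%. Galc, the galactosylceramidase missing in Krabbe disease, was at 9.05 and 11.8 TPM and its log2 count fold was -0.60. Gla, the α-galactosidase missing in Fabry disease, was likewise near equal by TPM at 7.22 and 9.67, with a log2 count fold of -0.77. Neither Galc nor Gla reached 2-fold in either direction.

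The glycosaminoglycan enzymes break down heparan and dermatan sulfate, and their summed TPM was nearly equal, at 257.0 and 260.3, because Ids made up most of it in both libraries. Of the 6 genes, 3 were called higher (Naglu, Sgsh and Idua), 1 lower (Ids) and 2 were not called. Library totals gave 4 higher and 0 lower calls, and removal of the GC trend gave none. The median log2 count fold was 0.84 under TMM and turned to -0.31 with the GC trend removed. The calls under TMM were 50% higher and 16.7% lower, beside 34.5% and 23.8% of all tested genes.

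Ids encodes iduronate-2-sulfatase, the enzyme missing in Hunter syndrome (ENSMUSG00000035847.11, chrX:70343069-70365084, minus strand). It had 229.9 TPM in replicate 1 and 185.3 TPM in replicate 2 (208 ± 31.6, SD, n = 2), from 15721 and 9148 counts. By counts it was called lower, with a log2 fold of -1.35, though TPM differed only by a ratio of 0.806 (0.785 to 0.827). Its main transcript Ids-201 held 99.3% and 94.6% of the gene's TPM.

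The other enzymes of this group were far below Ids. Naglu, which removes N-acetylglucosamine from heparan sulfate, had 1 count in replicate 1 and 109 in replicate 2, so its ratio of 40.0 has a counting interval from 7.03 to 1594. Sgsh, the sulfamidase of heparan sulfate, was at 0.26 and 2.70 TPM, the lowest of the 40 genes in replicate 2. Idua, which acts on iduronic acid, was at 2.84 and 11.5 TPM and had a log2 count fold of 1.04. Arsb, arylsulfatase B, was at 18.7 and 43.2 TPM, and Gusb, β-glucuronidase, at 5.12 and 13.3 TPM.

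The glycosidases of glycoproteins and glycogen were the group at the lowest level in replicate 1, with a summed TPM of 6.93 against 197.1 in replicate 2. Of the 4 genes, 3 were called higher under TMM, under library totals and with the GC trend removed (Gaa, Man2b1 and Fuca1), and Manba was not called. Their median log2 ratio of TPM + 1 was 3.52. The higher calls were 75% of the group, beside 34.5% of all tested genes under TMM and 10.3% with the GC trend removed.

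Gaa encodes acid α-glucosidase, which degrades glycogen and is missing in Pompe disease (ENSMUSG00000025579.10, chr11:119267887-119285454, plus strand). Its TPM was 0.21 in replicate 1 and 123.5 in replicate 2, from 9 and 4277 counts. No other of the 40 genes had a wider gap, with a TPM ratio of 588 (310 to 1287) and a log2 count fold of 8.24. The authors' deposited interval for its TPM in replicate 1, whose level is not stated, ran from 0.465 to 3.89 and so lay above the TPM of 0.21. Set against the deposited interval in replicate 2 (111.4 to 121.9) it allows a ratio between 28.6 and 262, all below the counting interval. The size of this ratio is therefore uncertain beyond counting error. Its rank among all genes was 14979 and 1118.

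Man2b1, the lysosomal α-mannosidase, was at 0.71 and 14.7 TPM. Fuca1, α-fucosidase, was at 2.80 and 53.7 TPM. Manba, β-mannosidase, was at 3.21 and 5.27 TPM and its counts did not differ at the threshold (adjusted p = 0.812, exact binomial test). Tpp1, the tripeptidyl peptidase, and Ppt1, the thioesterase that removes palmitate from proteins, are both lost in childhood forms of ceroid lipofuscinosis, and neither was called. Tpp1 was at 18.5 and 32.8 TPM. Ppt1, at 89.9 and 99.7 TPM, had the nearest to equal TPM of the 40 genes, with a ratio of 1.11 (1.05 to 1.17).

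The membrane proteins had a summed TPM of 312.7 in replicate 1 and 600.6 in replicate 2. Of the 7 genes, 3 were called higher (Cd68, Cln3 and Mcoln1), 1 lower (Lamp2) and 3 were not called (Lamp1, Cd63 and Scarb2). Library totals gave 3 higher and 0 lower calls, and removal of the GC trend gave 1 higher (Mcoln1) and 1 lower (Cd63). The median log2 ratio of TPM + 1 was 1.24. The calls under TMM were 42.9% higher and 14.3% lower, beside 34.5% and 23.8% of all tested genes.

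Lamp1 and Lamp2 encode the most abundant glycoproteins of the limiting membrane, and they differed in opposite directions by TPM. Lamp1 (ENSMUSG00000031447.6, chr8:13159161-13175338) had 120.3 and 261.2 TPM, with a ratio of 2.17 (2.08 to 2.26). Lamp2 (ENSMUSG00000016534.11, chrX:38401357-38456454, minus strand) had 104.2 and 71.1 TPM, with a ratio of 0.683 (0.646 to 0.722), and was called lower with a log2 count fold of -1.59. By TPM the level of Lamp2 relative to Lamp1 therefore differed between the libraries. The GC content of their transcripts was 51.6% (Lamp1) and 40.6% (Lamp2). With the GC trend removed neither was called, at log2 count folds of -0.58 (Lamp1) and -0.03 (Lamp2).

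Lamp2 has 3 coding transcripts with different last coding exons, which give the protein different cytoplasmic ends. The last 36 coding bases before the stop codon of each are shown to compare these ends (GENCODE M21, GRCm38, X chromosome, minus strand), at chrX:38405435-38405470 for Lamp2-201, chrX:38421715-38421750 for Lamp2-202 and chrX:38402142-38402177 for Lamp2-203. All are in lower case, with no stretch singled out.
Lamp2-201: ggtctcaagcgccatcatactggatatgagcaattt
Lamp2-202: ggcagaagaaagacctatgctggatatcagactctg
Lamp2-203: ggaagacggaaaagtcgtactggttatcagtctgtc
Of the 36 bases, Lamp2-201 shared 16 with Lamp2-202 and 17 with Lamp2-203, and Lamp2-202 shared 23 with Lamp2-203. Lamp2-201 held 24.1% of the gene's TPM in replicate 1 and 28.04% in replicate 2, Lamp2-202 42.2% and 36.8%, and Lamp2-203 33.4% and 34.7%. The order of the transcripts was the same in both libraries.

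The other membrane proteins were read from fewer counts than Lamp1 and Lamp2. Scarb2, the receptor that carries β-glucocerebrosidase to the lysosome, was at 31.7 and 59.8 TPM and its counts did not differ at the threshold (adjusted p = 0.332, exact binomial test). Cd63, a tetraspanin of late endosomes, was at 50.4 and 120.2 TPM. Mcoln1, the cation channel mucolipin, had 4.16 and 60.8 TPM, with a ratio of 14.6 (11.3 to 19.2).

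Cd68, a glycoprotein of macrophages and microglia, was at 1.13 and 12.6 TPM, from 17 and 122 counts. Cln3, a membrane protein whose loss causes juvenile ceroid lipofuscinosis, was at 0.95 and 14.9 TPM, from 31 and 182 counts.

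The cofactors bind lipids or proteins rather than cutting them. Of the 3 genes, Psap and Grn were called higher under TMM and under library totals, and Gm2a was not called. With the GC trend removed Grn was called and Psap, at a log2 count fold of 0.98, was just short of 2-fold. The higher calls were 66.7% of the group under TMM and library totals, beside 34.5% and 43.4% of all tested genes. With the GC trend removed they were 33.3%, beside 10.3%. Their summed TPM was 74.7 in replicate 1 and 1029 in replicate 2. Gm2a, which lifts ganglioside out of the membrane for β-hexosaminidase, was at 11.1 and 23.4 TPM, and its counts did not differ at the threshold (adjusted p = 0.191, exact binomial test).

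Psap encodes prosaposin, the precursor that is cut into the saposins needed for glycolipid breakdown (ENSMUSG00000004207.10, chr10:60277627-60302597, plus strand). Its TPM was 62.9 in replicate 1 and 971.1 in replicate 2 (517 ± 642, SD, n = 2), from 2181 and 25929 counts. The ratio was 15.4 (14.8 to 16.1). Grn, progranulin, a secreted precursor that is carried to the lysosome and whose loss causes frontotemporal dementia or ceroid lipofuscinosis (ENSMUSG00000034708.7, chr11:102430315-102437048, plus strand), was at 0.67 and 35.0 TPM. From 10 and 757 counts its ratio was 52.2 (28.2 to 109), while the authors' deposited TPM intervals allow a ratio between 11.01 and 39.8.

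Psap has coding transcripts with and without a 9-base exon, shown in capitals with 21 coding bases on either side (chr10:60297537-60297545, plus strand, GENCODE M21, GRCm38). It is shown because the share of transcripts that hold it differed between the libraries.
Psap-205: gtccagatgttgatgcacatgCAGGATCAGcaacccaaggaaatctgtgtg
Psap-205, which holds the exon, made up 33.1% of the gene's TPM in replicate 1 and 73.8% in replicate 2. Psap-203, which lacks it and also differs at its 5′ end, made up 66.9% and 5.0%. Psap-202, which lacks it too, made up 0% and 20.1%.

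The leading transcript differed between the libraries in other genes as well. Of the 40 genes, 26 have more than 1 transcript, and in 12 of these the transcript with the largest share differed between the libraries: Ctsa, Ctsd, Ctsh, Asah1, Neu1, Gusb, Naglu, Sgsh, Idua, Fuca1, Psap and Grn. Shares are of TPM, which is divided by transcript length, so a short transcript can lead with fewer counts. The largest share belonged to a transcript not annotated as protein-coding in 7 genes in replicate 1 and in 3 in replicate 2. Protein-coding transcripts held less than 50% of the gene's TPM in 8 genes in replicate 1 and in 2 in replicate 2. Their share was over 10 percentage points higher in replicate 2 for 9 genes and over 10 points lower for 2, Cd68 and Cln3. For Cln3 it was 95.5% and 50.2%, but by posterior mean shares 55.1% and 47.8%, a smaller gap. Several of these shares rest on few counts in replicate 1, such as 1 for Naglu, 9 for Gaa, 10 for Grn and 17 for Cd68.

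**Figure D2:**
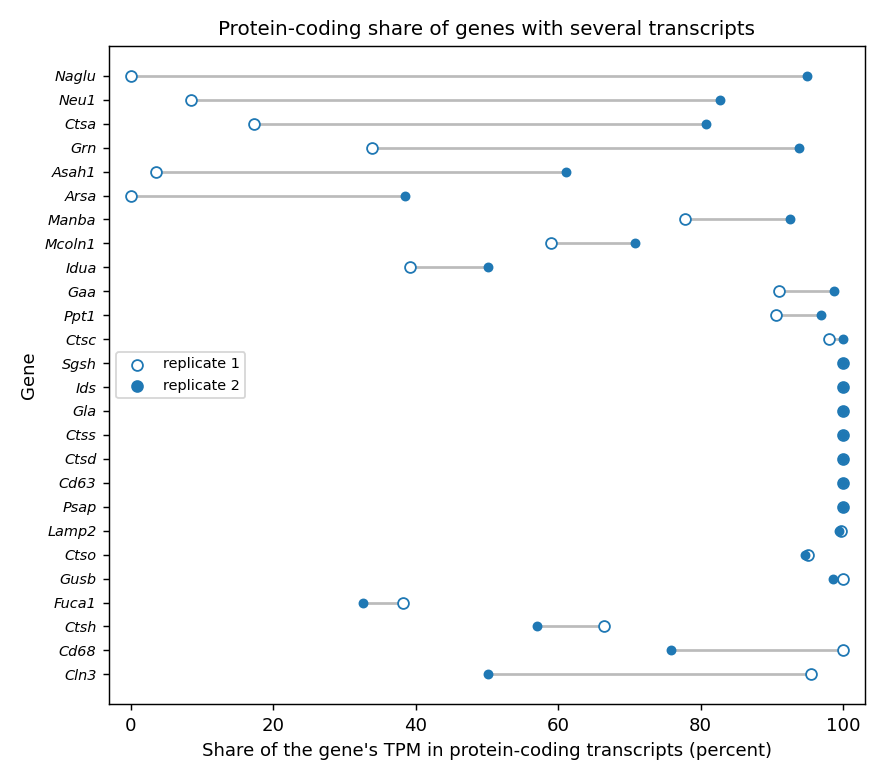
Share of each gene's TPM (percent) in transcripts annotated as protein-coding, for the 26 genes with more than 1 transcript, in replicate 1 (open circles) and replicate 2 (filled circles), 1 library each. The share was over 10 points higher in replicate 2 for 9 genes, among them Asah1 and Neu1, and over 10 points lower for Cd68 and Cln3. By posterior mean shares, not drawn, Cln3 was at 55.1% and 47.8%.

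Asah1, the acid ceramidase gene, changed direction with its transcripts. The coding transcript Asah1-201 stood at 4.26 TPM in replicate 1 and 28.1 in replicate 2, or 3.63% and 61.1% of the gene. Asah1-202, annotated as a target of nonsense-mediated decay, held 52.9% and 12.3%, and Asah1-203, a retained-intron transcript, held 43.4% and 25.4%. Counted over all its transcripts the gene was called lower, with a log2 count fold of -1.55, and counted over its coding transcript it was called higher, at 1.66.

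In Neu1, Grn and Ctsa too, the leading transcript by TPM share was noncoding in replicate 1 and coding in replicate 2. Neu1-202, a retained-intron transcript, held 91.5% of the sialidase gene's TPM in replicate 1 and 17.3% in replicate 2, and the coding Neu1-201 held 8.48% and 82.7%. The coding Grn-201 held 17.97% and 88.3%, and the retained-intron Grn-202 held 66.1% and 2.79%. For Ctsa the largest share was that of the noncoding Ctsa-209 in replicate 1 (52.3%, against 0% in replicate 2) and of the coding Ctsa-202 in replicate 2 (64.7%, against 15.5% in replicate 1). Fuca1 did the reverse by TPM share. The coding Fuca1-201 led in replicate 1 at 38.3% and the short noncoding Fuca1-205 led in replicate 2 at 58.7%. By expected counts the coding transcript led in both libraries, with 36.1 and 443.2 for Fuca1-201 against 0.77 and 73.6 for Fuca1-205. Counts also put Ctsa-202 ahead of Ctsa-209 in replicate 1, at 50.2 against 24.4.

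The other genes of the 12, Ctsh, Gusb, Naglu, Sgsh and Idua, had 1 to 119 counts in replicate 1. The lead passed from Ctsh-204 (44.7% and 24.8%) to Ctsh-202 (7.63% and 36.7%), and from Gusb-202 (55.5% and 36.1%) to Gusb-201 (37.2% and 51.1%). It passed from Naglu-202 (100% and 5.07%) to Naglu-201 (0% and 94.9%), and from Sgsh-202 (100% and 21.4%) to Sgsh-201 (0% and 78.6%). By posterior mean shares Sgsh-202 held only 11.6% in replicate 1, where Sgsh-206 led. For Idua the lead passed from Idua-205 (43.2% and 8.99%) to Idua-203 (39.2% and 25.6%), which led in both libraries by posterior mean shares. By expected counts Gusb-201 led Gusb-202 in both libraries (68.5 and 183.8 against 30.6 and 38.7). In replicate 1 Idua-203 (45.4) exceeded Idua-205 (41.6), and in replicate 2 Ctsh-201 (102.99) exceeded Ctsh-202 (86.25). Ctsb and Hexa have 1 annotated transcript each. Counted over protein-coding transcripts alone, 21 of the 40 genes were called higher and 4 lower, against 37.2% and 24.2% of all genes tested that way.

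**Figure D3:**
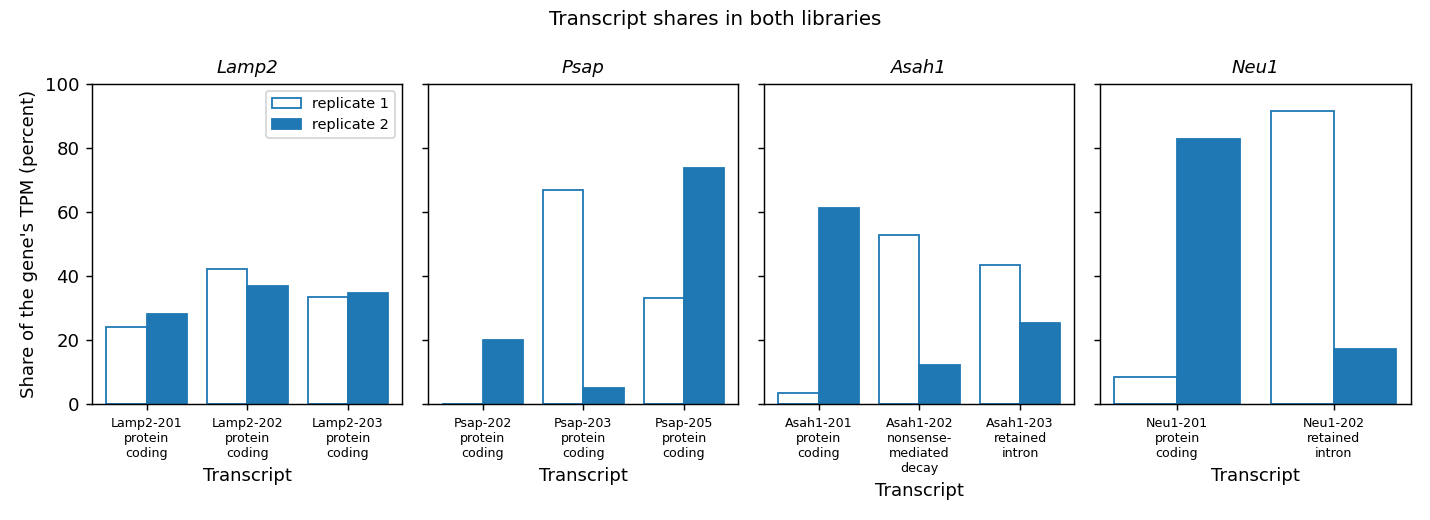
Share of the gene's TPM (percent) held by each transcript with at least 10% in either library, for Lamp2, Psap, Asah1 and Neu1, in replicate 1 (open bars) and replicate 2 (filled bars), 1 library each. The Lamp2 shares stay within 24.1% and 42.2%, while the largest share passes from Psap-203 to Psap-205, from Asah1-202 to Asah1-201 and from Neu1-202 to Neu1-201.

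GC content, the percent of G and C bases in a gene's transcripts, moved with the library difference. Its median was 52.8% over the 40 genes and 49.8% over all tested genes. The 20 genes called higher had a GC content of at least 51.9%, the 5 called lower of at most 43.3%, and those not called lay between 44.7% and 55.1%. Spearman's rho between the log2 count fold and GC content was 0.90 over the 40 genes and 0.90 over 16263 tested genes with a sequence. These are descriptions across genes that share the same libraries, and what sets the relation was not tested.

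The calls were also read by class of GC content, as a description with no test. Of the 6 below 45%, 5 were called lower, against 77.9% of all tested genes in that class, and the median log2 count folds were -1.43 and -1.40. Of the 9 between 45% and 50% none was called, where 3.33% of all genes in the class were higher and 15.7% lower, and the medians were -0.16 and -0.47. Of the 12 between 50% and 55%, 8 were called higher (47.6% of all), with medians of 2.07 for them and 1.01 for all genes. Of the 13 at 55% or above, 12 were called higher (91.3% of all), with medians of 3.15 and 3.52. The exception in the highest class was Cd63, at 55.1% GC with a log2 count fold of 0.27.

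With the trend on GC content removed, the 6 genes called higher were Gaa (log2 count fold 4.10), Grn (2.96), Fuca1 (2.12), Man2b1 (1.62), Mcoln1 (1.43) and Ctsl (1.26), and the one lower was Cd63 (-1.999). Ctsl and Cd63 had not been called before. The median log2 count fold of the 40 genes was 0.93 under TMM, 1.54 with library totals and 0.29 with the GC trend removed, and that of all tested genes was 0.09, 0.70 and -0.01.

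**Figure D4:**
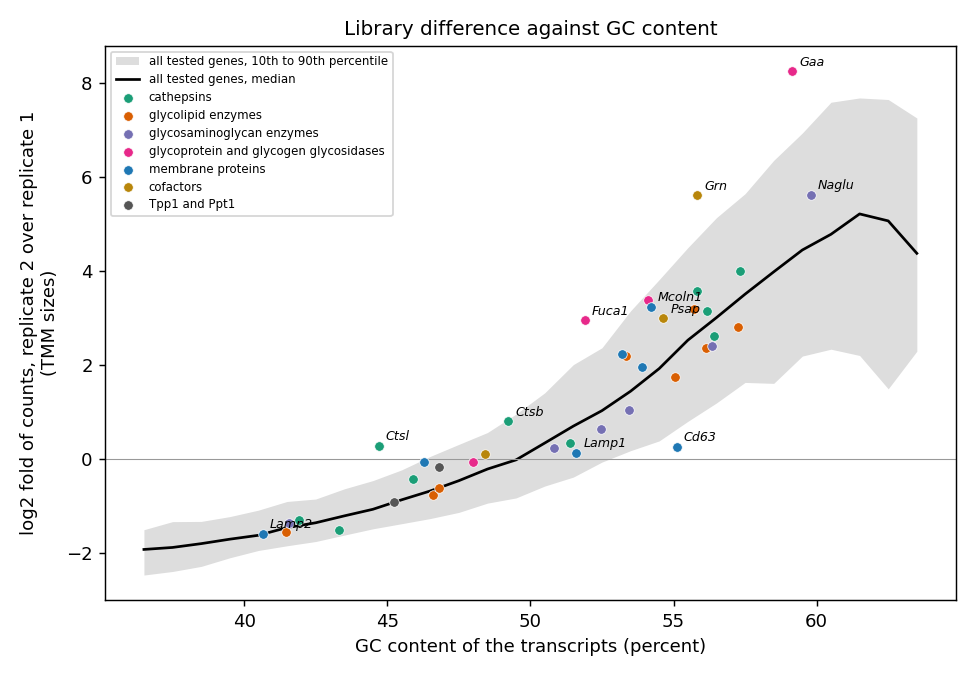
Log2 fold of counts in replicate 2 over replicate 1 (TMM sizes) against GC content of the transcripts (percent), with 1 point per gene coloured by group. The black line and grey band are the median and the 10th to 90th percentile of all tested genes by GC content, and Gaa and Grn lie above the band's median while Cd63 lies below it.

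Exons of 16 of the 40 genes overlap those of another annotated gene, on the opposite strand for 14 and on the same strand for 3 (Ctsd, Ctsl and Glb1). The sources used here do not say whether counting used the strand, so the levels of these genes are uncertain by the reads of their neighbours. Gaa is not among the 16, and Grn, whose exons overlap those of Fam171a2 on the opposite strand, is.

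Many lysosomal genes carry an E-box in their promoters, within a palindrome known as the CLEAR element that TFEB, a transcription factor of lysosome biogenesis, binds. Promoters from 250 bases before to 50 bases after the start of a gene (RefSeq, GRCm38.p6) were searched for CACGTG, for TCACGTGA and for the full GTCACGTGAC. Each is its own reverse complement, so both strands are covered, and each longer motif contains the shorter. A promoter was found for 37 of the 40 genes (40 promoters), all but Ctsb, Ctsh and Asah1.

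CACGTG was present in 13 of the 40 promoters (32.5%) and in 7.15% of all 32851 promoters of the same length. TCACGTGA was present in 5 (12.5%), those of Cln3, Ctsa, Ctsd, Gla and Mcoln1, and in 0.974% of all. GTCACGTGAC was present in 1 (2.5%), that of Cln3, and in 0.326% of all. The windows of 30 bases around these matches are shown, with the motif in capitals, because the same 8 letters recur in a protease, a glycosidase, a channel and a membrane protein. They lie at chr7:126583340-126583369 (minus strand) for Cln3, chr2:164833749-164833778 (plus strand) for the first match in Ctsa, chr7:142387908-142387937 (minus strand) for Ctsd, chrX:134601215-134601244 (minus strand) for the first match in Gla, and chr8:3500462-3500491 (plus strand) for Mcoln1.
Cln3: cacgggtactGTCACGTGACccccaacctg
Ctsa: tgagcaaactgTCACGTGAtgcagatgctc
Ctsd: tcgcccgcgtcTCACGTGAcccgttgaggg
Gla: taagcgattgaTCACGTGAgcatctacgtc
Mcoln1: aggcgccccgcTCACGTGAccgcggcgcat
Ctsa and Gla each hold another match in the same window of 300 bases. A match describes letters only, and these libraries hold no measure of binding.

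The wider lysosomal system was read from 85 other genes, of which 84 were tested. Of these, 37 were called higher (44.0%) and 15 lower (17.9%), beside 34.5% and 23.8% of all tested genes. With library totals the calls were 45 and 3 (53.6% and 3.57%, beside 43.4% and 7.83%), and with the GC trend removed 12 and 2 (14.3% and 2.38%, beside 10.3% and 9.05%). Among other hydrolases 10 of 20 were higher and 2 lower (50% and 10%), and 4 and 0 with the GC trend removed. Lgmn, a protease that matures cathepsins, was at 19.9 and 102.7 TPM, and the gap passed 16-fold by counts for Plbd2, a phospholipase B-like protein, and Hyal2, a hyaluronidase.

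Among other membrane proteins 6 of 18 were called higher and 5 lower (33.3% and 27.8%, near the shares of all tested genes), and 3 and 1 with the GC trend removed. Levels included Laptm4a at 222.1 and 211.7 TPM, Tmem106b, a frontotemporal dementia risk gene, at 111.7 and 66.0 TPM, and Abca2, a lipid transporter, at 2.25 and 72.4 TPM. Of the 16 subunits of the proton pump that acidifies the lysosome, 6 were higher and 3 lower (37.5% and 18.8%, near the shares of all tested genes), and 0 and 1 with the GC trend removed. Their TPM was at least 23.1 in replicate 1 and 170.5 in replicate 2. Atp6v0c, of the membrane ring, was at 133.9 and 1164 TPM, and Atp6v1e1, of the stalk, at 264.4 and 525.9 TPM.

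Of the 16 genes that sort hydrolases to the lysosome, 7 were higher and 3 lower (43.8% and 18.8%). The shares of all tested genes were 34.5% and 23.8%. With the GC trend removed the calls were 2 and 0 (12.5% and 0%, beside 10.3% and 9.05%). Vps35, of the retromer that retrieves sorting receptors, was at 212.5 and 127.1 TPM. Sort1, a receptor for prosaposin and progranulin, was at 49.7 and 138.3 TPM. Gga1, an adaptor for mannose 6-phosphate receptors, was at 0.10 and 30.5 TPM, and Nagpa, which uncovers the mannose 6-phosphate tag, also passed 16-fold by counts.

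Of the 14 genes of transcription and mTORC1 control of lysosomes, 8 were higher and 2 lower (57.1% and 14.3%). The shares of all tested genes were 34.5% and 23.8%. With the GC trend removed the calls were 3 and 0 (21.4% and 0%, beside 10.3% and 9.05%). The list's median GC content was 54.1%. Rraga and Rragc, GTPases that bring mTORC1 to the lysosome, had 71.1 and 126.8 TPM (Rraga) and 89.2 and 52.1 TPM (Rragc). Tfeb had 0 counts in replicate 1 and 150 in replicate 2, at least 33.6-fold higher against a floor of 3 counts in replicate 1. Its GC content was 62.6%, and with the GC trend removed it was not called (log2 count fold 2.49). Lamtor2 and Lamtor4, of the scaffold that holds these GTPases, had 0.90 and 89.0 TPM (Lamtor2) and 0.79 and 74.5 TPM (Lamtor4).

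Markers of brain cells were present in both libraries. The summed TPM of 10 neuron markers was 5126 in replicate 1 and 5997 in replicate 2, that of 8 oligodendrocyte markers 2193 and 2982, and that of 9 astrocyte markers 1099 and 2198. The 12 microglia markers summed to 206.1 and 559.3, and none was at 0. Of the 12, 7 were called higher and 2 lower (58.3% and 16.7%, beside 34.5% and 23.8% of all tested genes). With the GC trend removed the calls were 3 and 0 (25% and 0%, beside 10.3% and 9.05%). C1qb was at 0.69 and 81.4 TPM and P2ry12 at 47.7 and 34.03 TPM, so the microglia markers moved in both directions, and their part in the results for Cd68, Ctss, Ctsz and Grn was not tested. The 10 markers of border macrophages and blood leukocytes summed to 15.4 and 14.8 TPM, with Cd3e at 0 counts in both libraries. The 5 liver markers summed to 0.38 and 12.3 TPM, and the 5 skeletal muscle markers to 0.31 and 12.7. Choroid plexus and ependyma markers summed to 79.8 and 907.2 TPM, of which Ttr alone had 72.0 and 855.8. Of these 6 markers, 4 were called higher and 0 lower (66.7% and 0%, beside 34.5% and 23.8% of all tested genes). With the GC trend removed the calls were also 4 and 0 (beside 10.3% and 9.05%). Folr1 and Foxj1 had 0 counts in replicate 1, while Kl (4.92 and 6.15 TPM) and Clic6 (2.39 and 4.78 TPM) were not called. The part of these markers in the differences among the 40 genes was not tested.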

How the data were processed

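Each library has a gene table and a transcript table. Per the file headers, the deposited expected counts are estimates per gene or transcript and not whole reads. TPM values were computed by the authors for genes and for transcripts. The deposited transcript tables also give each transcript's percent of its gene's TPM. Posterior mean counts, TPM and shares, also deposited, served as alternatives, and the deposited interval bounds of TPM, of unstated level, were set beside the TPM. The labels name the assembly mm10 and the file listings GENCODE M4. The quantifier and the aligner were not given in the sources used here. The labels' protocols name a lipid tissue extraction kit.

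Of 69691 rows, 43346 carry an Ensembl identifier, and the others, with 0 counts in replicate 1 and 1 in replicate 2, were left out. Symbols, positions and sequences came from GENCODE M21 (GRCm38), which named 42462 genes and held a sequence for 97.95% of transcripts (88.21% of equal length). A gene's GC content was averaged over its transcripts with their mean TPM as weights. Genes with a sum of 10 or more counts were tested on expected counts rounded to whole numbers, by a two-sided exact binomial test with TMM sizes from edgeR 4.0.16 (R 4.3.3). Folds had 0.5 added to each count, and log2 ratios 1 added to each TPM. With 1 library per side no dispersion can be estimated, so the tests of edgeR and DESeq2 were not used. DESeq2 1.42.0 supplied alternative size factors. Trends were fitted by lowess with fraction 0.2 in statsmodels 0.14.6. Python 3.11.15 ran the rest, with pandas 2.3.3, numpy 2.4.6, matplotlib 3.10.9 and scipy 1.17.1.

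All 40 genes are named. From each other lysosomal list come the 2 genes of highest mean TPM and any called over 16-fold different, except that some genes of the lists are not reported here. Transcripts are named from those that held at least 10% in either library, in genes whose leading transcript differed and in Lamp2, Psap, Ctsb, Ids and Hexa, with the leading ones given first and some left out. Those of Ctss and Arsa were added after their values were seen. The 40 genes and the lists were chosen with earlier results of these data known. Since both libraries come from 1 mouse, their spread covers no variation between animals, and the sources used here do not say whether they share an RNA extract.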

Additional observations from a re-analysis of the deposited data

How the results depend on the processing

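The 20 higher calls stayed at 19 to 22 under library totals, DESeq2 size factors, TMM without mitochondrial genes, no minimum count, posterior mean counts, a length trend removed, a 1.5-fold limit and coding transcripts only, the last chosen after seeing the data. With the GC content trend removed there were 6. The 5 lower calls became 0 with library totals and 1 with the GC trend removed. They became 8 both with the length trend removed and at 1.5-fold. Shares of all tested genes are given above only for TMM, library totals, the GC trend removed and coding transcripts. Under the other settings the calls have no background beside them, and a 1.5-fold limit can only add calls, for any gene. Higher and lower calls under those settings therefore describe these genes alone, not a difference from other genes. The median log2 ratio of TPM + 1 lay between 0.39 and 1.88 under all settings. The mean of the summed TPM was 2300, and 3963 with TPM rescaled to exclude mitochondrial genes. Using 1 library alone, the summed TPM ranged from 1161 to 3438 and the median TPM from 7.75 to 39.4. The leading transcript differed for 13 genes with posterior mean shares, against 12.

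With the GC trend removed, the log2 count fold changed sign for 17 genes. The 9 of these called in either setting were Ctsf (-0.33), Ctso (0.11), Arsa (-0.53), Hexa (-0.49), Neu1 (-0.45), Sgsh (-0.51), Idua (-0.40), Ids (0.086) and Cd63 (-1.999), and the 8 called in neither were Ctsh, Ctss, Arsb, Gusb, Manba, Lamp1, Scarb2 and Tpp1. With coding transcripts only, Asah1 changed sign (1.66), as did Ctsh (-0.03), which was called in neither setting. The cause was not tested. DESeq2 size factors left all 40 calls on their side of the threshold. No paired analysis was possible because the libraries form 1 group. Leaving out a library was not possible for the calls, which have 1 library per side. Depth limits the ratios of genes with few counts in replicate 1, such as Naglu with 1 count.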
